A study of Mus musculus with 24 samples.

Results

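Retinoic acid is made, carried, sensed and broken down by a small set of proteins, and 10 mouse genes of these steps were followed through retinal organoids, which are retina-like tissues grown from embryonic stem cells. The genes were Aldh1a1, Aldh1a2 and Aldh1a3 for synthesis, Cyp26a1, Cyp26b1 and Cyp26c1 for breakdown, Crabp1 and Crabp2 for transport inside the cell, the receptor gene Rarb, and Dhrs3. They were found by symbol among the Ensembl IDs of the deposited gene table, and all 10 were present among its 33846 genes. A filter on low counts left 16792 genes for testing and 9 of the 10, since Aldh1a2 held 49 counts in total.

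Retinaldehyde dehydrogenases of the ALDH1A family oxidise retinal to retinoic acid, CYP26 enzymes oxidise retinoic acid to forms that are cleared, and the CRABP proteins bind it in the cytoplasm. Retinoic acid acts through nuclear receptors of the RAR family, paired with RXR partners on response elements in DNA, while DHRS3 reduces retinal to retinol and so withdraws the substrate of synthesis. In the embryonic mouse retina Aldh1a1 is known as a dorsal gene and Aldh1a3 as a ventral gene, with Cyp26a1 and Cyp26c1 in a stripe between them, and Rarb, Cyp26a1 and Dhrs3 are known to be induced by retinoic acid itself.

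Polyadenylated RNA was sequenced from 24 libraries in 9 groups, and levels are given as CPM, counts scaled by the total of each library. Optic cups cut from the organoids on day 10 (D10) were grown in a rotating-wall bioreactor (RWB; 2 libraries at D18, 3 at D22, 3 at D25) or in dishes as dissected static suspension cultures (SSCd; 3 libraries each at D18, D22 and D28). Organoids left whole were grown as intact static suspension cultures (SSCi; 2 libraries at D18, 2 at D25, 3 at D32). All were wild type and derived from a line made from Nrl-GFP transgenic blastocysts, or from the R1 line, and the labels do not say which library came from which. The media of all groups held 500 nM 9-cis retinal, a precursor of retinoic acid, with taurine, N2 supplement and insulin-like growth factor 1. Fetal bovine serum at 2%, amino acids and B27 free of vitamin A were added from D18 to RWB and SSCd and from D26 to SSCi, so the D25 libraries of RWB and SSCi also differed in these additions, and the effect of the additions and that of the culture cannot be told apart there.

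Total counts ranged from 13284632 to 21604446 per library. Markers of retinal progenitors summed to 1685 to 1733 CPM in RWB, 1356 to 2413 CPM in SSCd and 2122 to 3146 CPM in SSCi at D18, and to 231 to 466 CPM on the last day of each culture. Replicate 1 of SSCi at D18 stood apart. Its 10 mesenchyme markers, which include collagen genes, summed to 6743 CPM, against 31.5 CPM in its replicate and 13.4 to 321 CPM in the other libraries. The ciliary margin markers summed to 519.2 CPM in it and 140.1 CPM in its replicate, and Vax2, a ventral gene, was at 0.61 CPM in it and 19.7 CPM in its replicate. Replicate 1 of RWB D22, RWB D25, SSCd D18 and SSCd D22 had 8.26% to 13.09% of counts on mitochondrial genes, and the others 2.46% to 5.76%. In whole organoids, fewer cells of a type and less RNA per cell cannot be told apart.

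Promoter sequences, 250 bases before to 50 after the start of transcription (RefSeq, GRCm38.p6), were on hand for 8 of the 10 genes, as 11 promoters. They were searched on both strands for direct repeats built from the half-site AGGTCA or from its variants that read AGTTCA or else GGGTCA or finally GGTTCA, spaced by 1, 2 or 5 bases, the arrangements that RAR and RXR pairs are known to bind. A repeat spaced by 5 bases was found in Rarb and Cyp26a1, and no repeat of the 3 spacings was found in the other 9 promoters. Of all 32851 promoters in the table, 32 held a repeat spaced by 5 bases (0.0974%), 73 held one spaced by 1 base and 88 one spaced by 2 bases. Both promoters are printed because these 2 genes share the repeat and differed in their levels across the groups. The repeat is in capitals. It lies on the gene's strand from -53 to -37 in Rarb (chr14:16575427-16575726, minus strand) and on the opposite strand from -32 to -16 in Cyp26a1 (chr19:37697558-37697857, plus strand), counted from the start of transcription. These letters describe the sequence and show no binding. The Rarb promoter lies within the annotated span of the gene (chr14:16430839-16819156), not at its outer end. Whether the transcript counted for Rarb starts there was not examined.
Rarb: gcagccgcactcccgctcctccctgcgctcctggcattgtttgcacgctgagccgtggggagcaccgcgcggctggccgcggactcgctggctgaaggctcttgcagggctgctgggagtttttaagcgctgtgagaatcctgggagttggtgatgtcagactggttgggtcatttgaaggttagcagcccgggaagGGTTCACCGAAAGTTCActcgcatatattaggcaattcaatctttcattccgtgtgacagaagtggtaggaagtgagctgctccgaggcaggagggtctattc
Cyp26a1: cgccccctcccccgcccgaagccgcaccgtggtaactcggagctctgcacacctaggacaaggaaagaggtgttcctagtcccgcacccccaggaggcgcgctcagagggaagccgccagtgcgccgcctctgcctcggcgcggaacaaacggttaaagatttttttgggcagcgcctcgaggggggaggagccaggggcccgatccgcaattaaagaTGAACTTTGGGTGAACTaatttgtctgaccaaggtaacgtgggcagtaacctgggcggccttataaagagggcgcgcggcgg

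**Figure D1:**
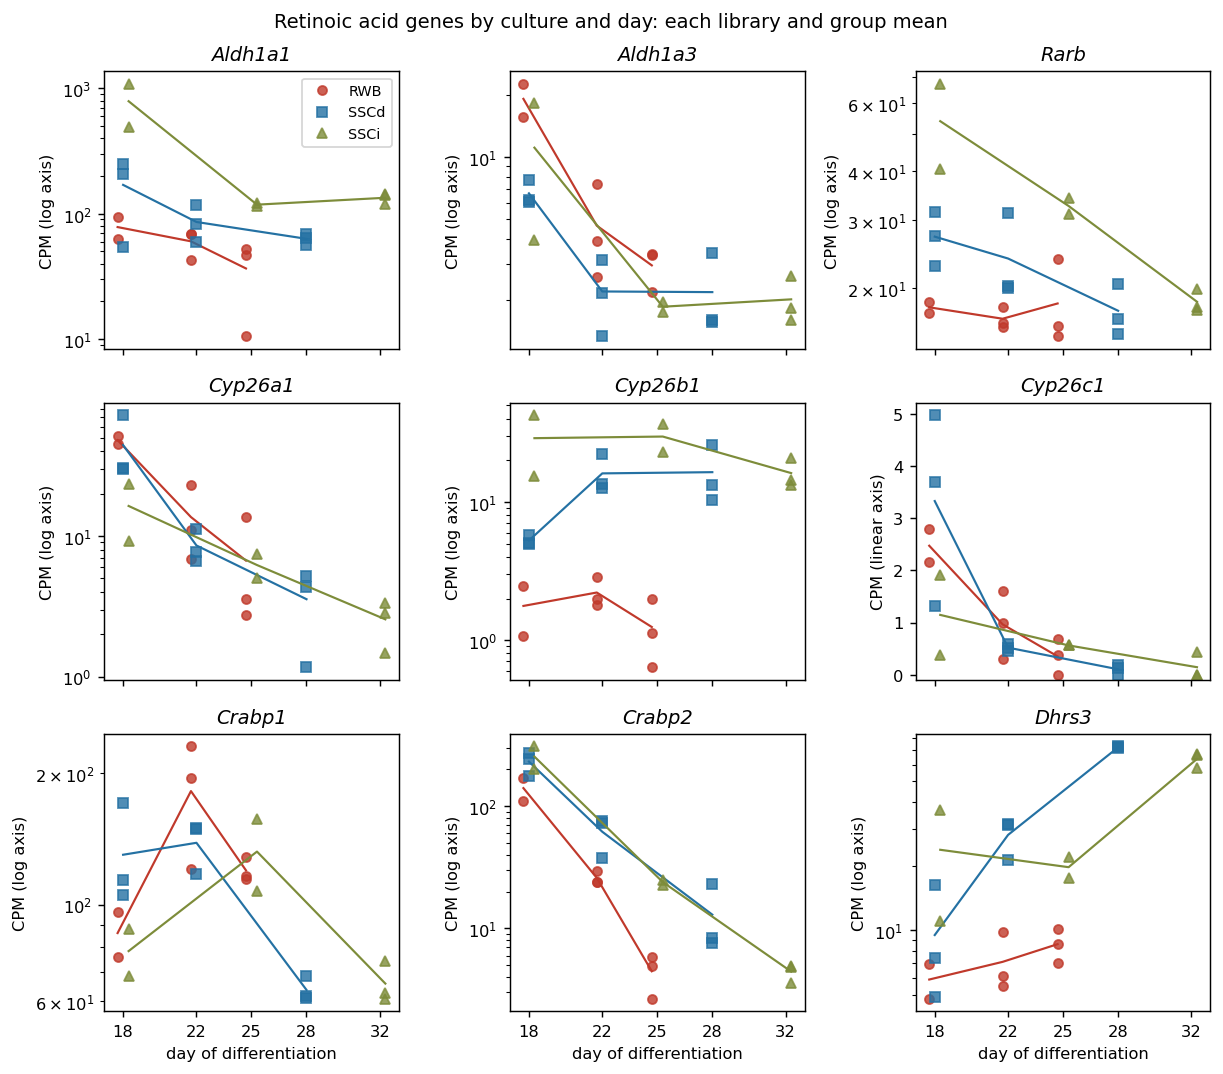
Levels of the 9 tested genes in each library (points, CPM) and the mean of each group (lines) against the day of differentiation in RWB, SSCd and SSCi. Axes are logarithmic, except for Cyp26c1. Crabp2 fell with time in the 3 cultures, and Cyp26b1 stayed at or below 2.87 CPM in RWB. Dhrs3 stayed at 4.79 to 10.1 CPM in RWB, which ended at D25. It reached 57.8 to 73.1 CPM on the last day of SSCd (D28) and SSCi (D32).

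Culture method was compared on the days that 2 cultures shared. Between RWB and SSCd, which tests rotation on dissected cups, none of the 9 genes was called at D18 by edgeR at an adjusted p under 0.05, where 0.488% of all genes tested were called. At an unadjusted p under 0.05 there were 4 of the 9 and 1478 of 16792 genes, and DESeq2 and limma-voom called none. At D22, 2 of the 9 were called lower in RWB, Cyp26b1 and Dhrs3, as were 1.49% of all genes. At D18, 3 were called lower in SSCd than in SSCi, Aldh1a1, Cyp26b1 and Rarb, as were 3.51% of all genes. In RWB, 4 were called lower than in SSCi at D18, Aldh1a1, Cyp26b1, Rarb and Dhrs3, as were 4.32% of all genes, and 3 at D25, Cyp26b1, Crabp2 and Rarb, as were 5.08%. None of the 9 was called higher in any of these 5 comparisons. The median log2 fold change of the 9 genes was -0.60 and -0.51 for RWB over SSCd at D18 and D22, -0.74 for SSCd over SSCi, and -0.86 and -0.84 for RWB over SSCi at D18 and D25, while the median of all genes lay between -0.00 and 0.04. Several of these comparisons share libraries: RWB D18, SSCd D18 and SSCi D18 each enter 2 of them.

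The D18 calls against SSCi rest on few libraries. Fitting only the groups compared left none of them (adjusted p of 0.555 for the 3 calls in SSCd and 0.294 to 0.447 for the 4 in RWB). That setting called no gene at all, 0 of 15367 for SSCd over SSCi and 0 of 15030 for RWB over SSCi. Without SSCi replicate 1, the one high in mesenchyme markers, only the call of Cyp26b1 in RWB was kept, at a log2 fold change of -3.12. That fit left 1 SSCi library, and far fewer genes of the whole table were called in both comparisons. The losses are therefore not particular to these genes. In these comparisons 7 of the 10 mesenchyme markers were called lower in SSCd and 8 of 10 lower in RWB than in SSCi, and none of the 10 was at 0 in any D18 library. The part of mesenchyme cells in the 7 calls was not tested beyond leaving out that library.

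**Figure D2:**
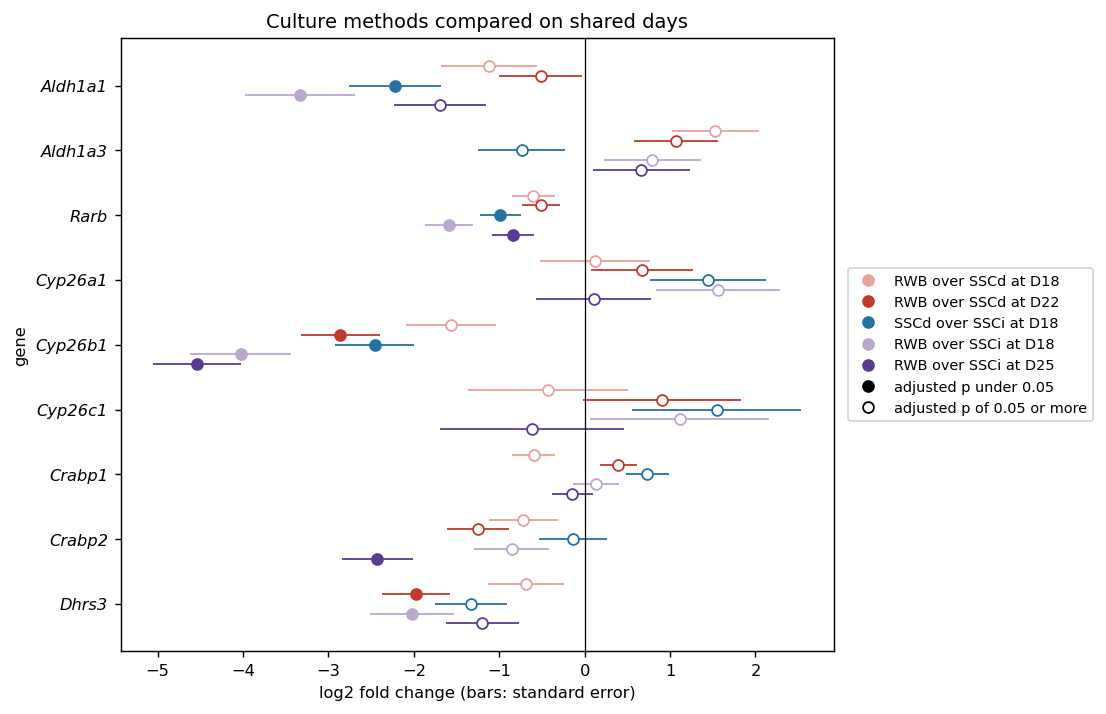
Log2 fold change (points, bars are standard errors) of each tested gene for the 5 culture comparisons, the first-named culture over the second. Filled points are called at an adjusted p under 0.05. Every filled point lies left of 0, and Cyp26b1 has the lowest values, down to -4.54 for RWB over SSCi at D25.

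Within each culture the days were compared in turn. Comparisons with D18 in RWB and SSCd span the start of the medium additions, which fell on D18 itself. So do those of D32 with either earlier day in SSCi, where the start was D26. Age and medium differ together in these comparisons, and the part of each was not tested. D25 over D18 in SSCi lies before that start. Each count is followed by the share of all 16792 genes called in that direction. In RWB, 2 of the 9 genes were lower (4.88%) and 1 higher (6.01%) at D22 than at D18, 1 was lower at D25 than at D22 (3.23%), and 4 were lower at D25 than at D18 (14%). In SSCd, 3 were lower (5.13%) and 2 higher (7.23%) at D22 than at D18, 2 were lower (5.05%) and 1 higher (3%) at D28 than at D22, and 7 were lower (17.1%) and 2 higher (17.5%) at D28 than at D18. In SSCi, 3 were lower at D25 than at D18 (10.9%), 3 were lower (4.54%) and 1 higher (3.72%) at D32 than at D25, and 6 were lower (20.5%) and 1 higher (16.2%) at D32 than at D18. The last days differ between cultures, so their changes stand side by side and were not compared with each other. Single libraries moved the number called in either direction. Without RWB D22 replicate 1, 1 of the 9 was called between D22 and D18 in RWB, as were 1106 of 16763 genes. With all libraries 1829 of 16792 genes were called. Without RWB D22 replicate 3, 2 were called between D25 and D22, as were 580 of 16754 genes (873 with all libraries). Between D22 and D18 in SSCd the count was 1 without D18 replicate 2, as for 1142 of 16780 genes (2076 with all libraries). It was 2 without D18 replicate 3 (1655 of all genes) or D22 replicate 3 (1647), and 3 without D22 replicate 1 (1313). Between D32 and D25 in SSCi it was 1 or 2 when any D32 library was left out, beside 879 to 910 of all genes (1386 with all libraries). Leaving out 1 of the 2 libraries of RWB D18, SSCi D18 or SSCi D25 could also lose calls, with 1 library left in that group. Crabp2 was the one gene called in all 9 of these comparisons, each time lower on the later day. Between D25 and D22 in RWB the 8 genes not called had log2 fold changes from -1.40 (Cyp26c1) to 0.28 (Dhrs3). The difference between the changes of RWB and SSCd from D18 to D22 was itself tested. None of the 9 genes and 0 of 16792 genes (0%) were called by edgeR, with 2 of the 9 and 525 of all genes at an unadjusted p under 0.05, and DESeq2 called 12 genes but none of the 9.

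**Figure D3:**
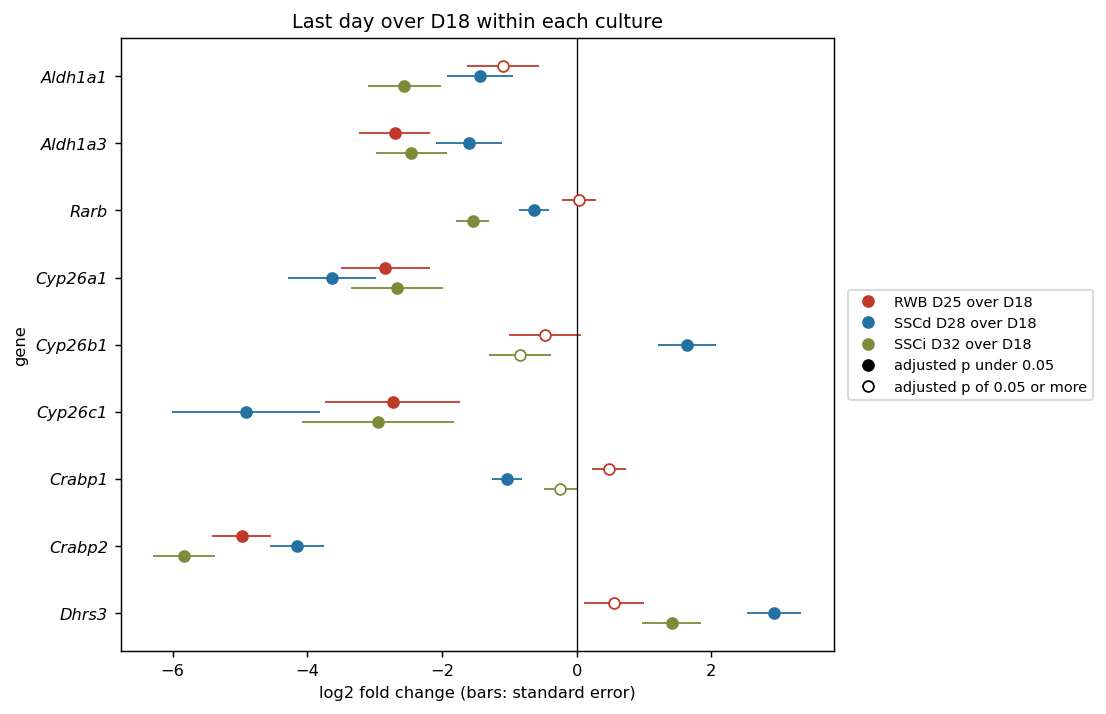
Log2 fold change (points, bars are standard errors) of each tested gene on the last day over D18 in RWB, SSCd and SSCi. Filled points are called at an adjusted p under 0.05. Crabp2, Cyp26a1, Aldh1a3 and Cyp26c1 were called lower in all 3 cultures, and Dhrs3 was called higher in SSCd and SSCi. Each of these comparisons spans the start of the medium additions.

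Aldh1a1 (ENSMUSG00000053279, chr19:20492715-20643465, plus strand) encodes the enzyme that makes retinoic acid in the dorsal retina. In RWB it had 62.3 and 94.2 CPM at D18, 68.6, 69.5 and 42.6 CPM at D22, and 51.9, 47.3 and 10.5 CPM at D25. In SSCd it had 248.7, 206.6 and 54.8 CPM at D18, 82.3, 59.0 and 116.6 CPM at D22, and 56.0, 69.4 and 63.9 CPM at D28. In SSCi it had 1086 and 496.6 CPM at D18, 121.6 and 114.8 CPM at D25, and 140.6, 118.9 and 143.0 CPM at D32. Both SSCi libraries of D18 stood above every other library, and below that group each neighbour in the order of group means overlapped the next.

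At D18 Aldh1a1 averaged 78.3 ± 22.5 CPM in RWB and 791 ± 417 CPM in SSCi (SD, 2 libraries each), a log2 fold change of -3.34 ± 0.65 (SE, as for all log2 fold changes; edgeR adjusted p = 0.00713). In SSCd it averaged 170.0 ± 102 CPM (SD, n = 3), a log2 fold change over SSCi of -2.22 ± 0.54 (adjusted p = 0.0221). Without SSCi replicate 1 these were -2.67 (adjusted p = 0.0923) and -1.55 (adjusted p of 1). Leaving out either RWB library also ended the first call, and leaving out SSCd replicate 2 or 3 ended the second. At D25 the RWB libraries lay below the SSCi ones without overlap (log2 fold change -1.70, adjusted p = 0.0538). With time, Aldh1a1 fell in SSCi by a log2 fold change of -2.74 ± 0.63 at D25 (adjusted p = 0.00443) and -2.56 ± 0.54 at D32 (adjusted p = 0.000901), both against D18. Without D18 replicate 1 the D32 value was -1.90 (adjusted p = 0.0265), still called, and the D25 value was -2.06 (adjusted p = 0.0627), no longer called. The D25 call was also lost without D25 replicate 2 (-2.67, adjusted p = 0.0582). In SSCd the D28 libraries overlapped those of D18, where replicate 3 held 54.8 CPM, and the call (-1.43, adjusted p = 0.0293) was lost when any library but D18 replicate 3 was left out. In RWB the D25 value against D18 was -1.10 (adjusted p = 0.134).

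Dorsal and ventral markers were read beside the synthesis genes. The 6 dorsal markers summed to 253 to 265 CPM in RWB, 304 to 530 CPM in SSCd and 550 to 778 CPM in SSCi at D18. The group means of Aldh1a1 had the same order, but its RWB and SSCd libraries overlapped. SSCd replicate 3, at 54.8 CPM of Aldh1a1, lay below both RWB libraries, and RWB over SSCd was not called (edgeR adjusted p = 0.598). Tbx5, a dorsal transcription factor, was at 4.59 to 5.05 CPM in RWB, 11.2 to 14.8 CPM in SSCd and 24.2 to 39.7 CPM in SSCi at D18. Of the 6 dorsal markers, Tbx5 was called lower in RWB than in SSCd at D22. At D18 Bmp4 was called lower in SSCd than in SSCi, and Tbx5 and Bmp4 lower in RWB than in SSCi. These D18 calls rest on few libraries. Fitting only the groups compared called 0 of 15367 genes for SSCd over SSCi and 0 of 15030 for RWB over SSCi. Without SSCd replicate 3, 0 of 16779 genes were called for SSCd over SSCi. Tbx2, Tbx5, Efnb1 and Efnb2 were called lower in RWB than in SSCi at D25. At D25 the list summed to 72.4 to 138 CPM in RWB and 373 to 474 CPM in SSCi. None of the 5 ventral markers was called at D18 or D22, and Ephb2 and Bmpr1b were lower in RWB at D25. No dorsal marker was at 0 in any library, and the part of dorsal and ventral cells in the values of Aldh1a1, Cyp26b1 and Rarb was not tested.

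**Figure D4:**
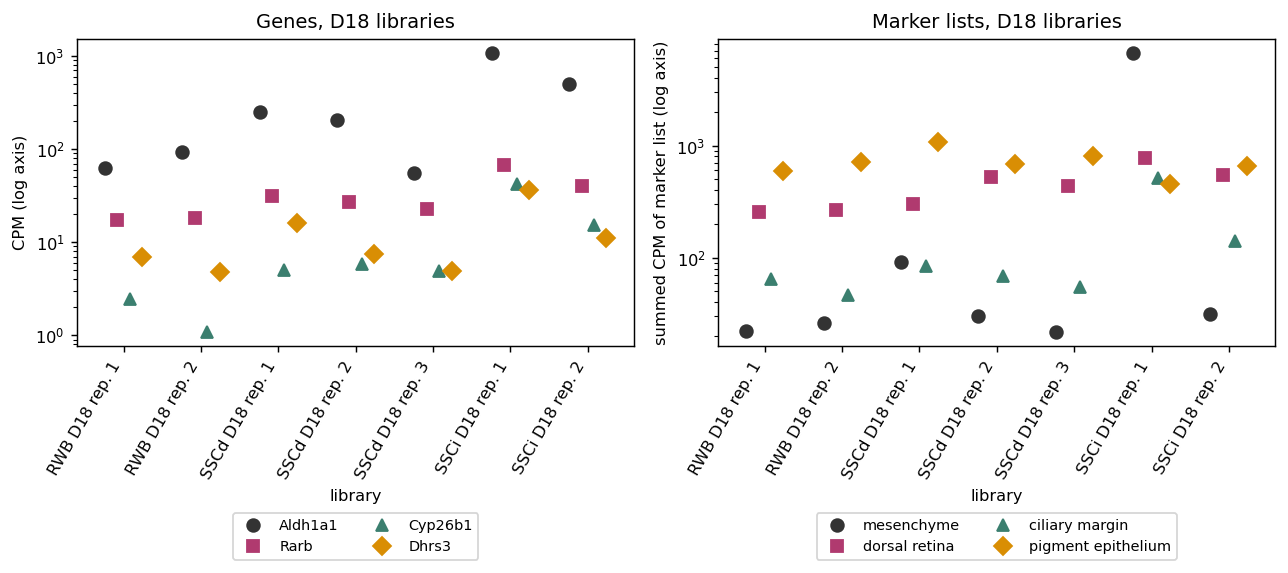
The 7 libraries of D18, with the level of Aldh1a1, Rarb, Cyp26b1 and Dhrs3 (left, CPM) and the summed level of 4 marker lists (right, CPM), both on logarithmic axes. SSCi replicate 1 is highest in all 4 genes and, at 6743 CPM, in mesenchyme markers, and SSCi replicate 2 is second in Aldh1a1, Rarb and Cyp26b1 at a mesenchyme sum of 31.5 CPM.

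Aldh1a3 (ENSMUSG00000015134, chr7:66390890-66427517, minus strand) encodes the enzyme of the ventral retina and ran at lower levels. In RWB it had 15.7 and 22.7 CPM at D18, 2.59, 3.88 and 7.42 CPM at D22, and 3.33, 3.36 and 2.19 CPM at D25. In SSCd it had 6.18, 6.04 and 7.74 CPM at D18, 2.16, 3.1 and 1.33 CPM at D22, and 1.60, 3.41 and 1.57 CPM at D28. In SSCi it had 3.94 and 18.3 CPM at D18, 1.97 and 1.75 CPM at D25, and 1.83, 1.61 and 2.62 CPM at D32. The SSCi replicates of D18 were far apart in the direction opposite to Aldh1a1, with replicate 2 the high one.

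Aldh1a3 fell between D18 and the last day in all cultures, by a log2 fold change of -2.70 ± 0.53 in RWB (adjusted p = 0.000609), -1.60 ± 0.49 in SSCd (adjusted p = 0.0155) and -2.45 ± 0.53 in SSCi (adjusted p = 0.00115). The RWB call held under every alternative tried. The SSCi call rests on D18 replicate 2, without which the log2 fold change was -0.91 (adjusted p = 0.218), and without replicate 1 it was -3.19. The SSCd call was lost without D28 replicate 1 or 3 (adjusted p of 0.0675 and 0.0663). By the second day sampled, the log2 fold change over D18 was -2.05 ± 0.52 at D22 in RWB (adjusted p = 0.0136), -1.59 ± 0.49 at D22 in SSCd (adjusted p = 0.0384) and -2.57 ± 0.62 at D25 in SSCi (adjusted p = 0.00597). The RWB call was lost without D18 replicate 2 or D22 replicate 1 or 2, and the SSCd call without any library but D22 replicate 2. The SSCi call was lost without D25 replicate 1 or 2, or without D18 replicate 2, when it was -1.02. At D18 the RWB libraries stood above all SSCd ones, at a log2 fold change of 1.53 ± 0.51, which was not called (adjusted p = 0.275), and RWB over SSCi was called without SSCi replicate 2 (log2 fold change 2.33, adjusted p = 0.0237) but not with it (0.79, adjusted p = 0.562).

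Counts of Aldh1a3 depend on its transcripts. By the estimated counts of the transcript table, Aldh1a3-201 (3443 bases) made up 86.2%, 65.0% and 44.8% of the gene in RWB at D18, D22 and D25, 75.3%, 63.9% and 31.5% in SSCd at D18, D22 and D28, and 82.4%, 66.6% and 32.4% in SSCi at D18, D25 and D32. Nearly all of the rest was the shorter Aldh1a3-203 (1496 bases). The later groups held 48.6 to 202 transcript counts of the gene each, so these shares are imprecise there, and in single libraries of SSCd D22 they ran from 0% to 85.1%. With plain sums of transcript counts in place of the gene table, the fall was larger, at -3.35 in RWB and -3.14 in SSCi for the last day over D18.

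Aldh1a2 (ENSMUSG00000013584, chr9:71215789-71296243, plus strand), the enzyme of mesenchyme around the eye, was close to undetected. It had 0 counts in 9 libraries and 3 or fewer in 21, where 3 counts correspond to 0.141 to 0.238 CPM, and counting error alone allows levels up to about that limit where it had none. The exceptions were RWB D25 replicate 1 with 6 counts, and SSCd D28 replicates 1 and 2 with 5 and 15 counts (0.897 CPM at most), while SSCd D28 replicate 3 had 0. Mesenchyme markers summed to 199 and 321 CPM in those SSCd D28 replicates and 38.7 CPM in replicate 3. SSCi D18 replicate 1, with the highest mesenchyme sum, had 2 counts of Aldh1a2.

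Set per length as TPM, in which each transcript's counts are divided by its length before scaling to a common total, Aldh1a1 made up 82.7% to 99.7% of the 3 synthesis genes in the libraries of every group. Their sum was 60.2 and 109 TPM in RWB, 55.6 to 180 TPM in SSCd and 439 and 1048 TPM in SSCi at D18. On the last day it was 12.6 to 47.4 TPM in RWB, 54.7 to 72.6 TPM in SSCd and 130 to 153 TPM in SSCi. The ranges of the 3 cultures did not overlap on these last days, which were D25, D28 and D32.

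Cyp26a1 (ENSMUSG00000024987, chr19:37697798-37701536, plus strand), the retinoic acid-inducible breakdown enzyme, had its highest levels in the dissected cultures at D18 and fell in all 3 cultures by the last day. In RWB it had 45.1 and 51.1 CPM at D18, 11.1, 23.0 and 6.86 CPM at D22, and 3.57, 13.8 and 2.72 CPM at D25. In SSCd it had 30.1, 72.5 and 30.6 CPM at D18, 7.75, 11.3 and 6.68 CPM at D22, and 5.19, 4.30 and 1.16 CPM at D28. In SSCi it had 9.19 and 23.6 CPM at D18, 5.00 and 7.43 CPM at D25, and 3.35, 1.47 and 2.84 CPM at D32. At D18 each RWB and SSCd library exceeded both SSCi libraries, the opposite order to Aldh1a1 and Rarb.

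The last day over D18 gave a log2 fold change of -2.85 ± 0.66 in RWB (adjusted p = 0.00273), -3.63 ± 0.65 in SSCd (adjusted p = 0.000213) and -2.67 ± 0.68 in SSCi (adjusted p = 0.00423). The RWB and SSCd calls held under every alternative, with the RWB value at -3.94 without D25 replicate 2, and the SSCi call was lost without D18 replicate 2 (-1.79, adjusted p = 0.0952). By D22 the fall was called in SSCd (-2.37 ± 0.61, adjusted p = 0.0138) and not in RWB (-1.82 ± 0.64, adjusted p = 0.0769), and the difference between these changes was 0.56 ± 0.88 (adjusted p of 1). The SSCd call at D22 was lost without D18 replicate 2 or D22 replicate 1 or 3. No culture comparison of Cyp26a1 was called. The nearest were RWB and SSCd over SSCi at D18, at 1.56 ± 0.73 (adjusted p = 0.283) and 1.44 ± 0.68 (adjusted p = 0.399).

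Cyp26b1 (ENSMUSG00000063415, chr6:84571414-84593908, minus strand), a second breakdown enzyme, separated the cultures most. In RWB it had 2.46 and 1.08 CPM at D18, 1.98, 1.78 and 2.87 CPM at D22, and 0.634, 1.12 and 1.98 CPM at D25. In SSCd it had 5.07, 5.76 and 4.95 CPM at D18, 12.7, 13.6 and 22.1 CPM at D22, and 10.3, 13.3 and 25.8 CPM at D28. In SSCi it had 42.6 and 15.4 CPM at D18, 23.0 and 36.5 CPM at D25, and 14.5, 13.3 and 20.8 CPM at D32. Every RWB library was below every library of the other cultures.

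At D22 Cyp26b1 averaged 2.21 ± 0.58 CPM in RWB and 16.1 ± 5.22 CPM in SSCd (SD, n = 3 each), a log2 fold change of -2.86 ± 0.46 (adjusted p = 0.00318) that held under every alternative. At D25 it averaged 1.24 ± 0.68 CPM in RWB (n = 3) and 29.8 ± 9.56 CPM in SSCi (n = 2), a log2 fold change of -4.54 ± 0.51 (adjusted p = 3.64e-05) that also held under every alternative. At D18 it was -4.03 ± 0.59 for RWB over SSCi (adjusted p = 0.00199), lost without RWB replicate 2 (-3.50, adjusted p = 0.0566), and -2.46 ± 0.47 for SSCd over SSCi (adjusted p = 0.00734), lost without SSCi replicate 1 (-1.55) or SSCd replicate 3. RWB over SSCd at D18 was -1.57 ± 0.53 and not called (adjusted p = 0.278), with no overlap between the libraries.

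With time Cyp26b1 rose in SSCd, the direction opposite to Cyp26a1. Its log2 fold change over D18 was 1.61 ± 0.43 at D22 (adjusted p = 0.0169) and 1.64 ± 0.43 at D28 (adjusted p = 0.00558). The D22 call was lost without D18 replicate 2 or 3 or D22 replicate 3, and the D28 call without D28 replicate 3 (1.16, adjusted p = 0.0501). In RWB the change was -0.47 ± 0.54 by D25 (adjusted p = 0.549) and in SSCi -0.84 ± 0.45 by D32 (adjusted p = 0.159), neither called. The difference between RWB and SSCd in the change from D18 to D22 was -1.29 ± 0.67 (unadjusted p = 0.0698, adjusted p of 1), so the separate results do not show that the cultures changed differently. Its pair of main transcripts, Cyp26b1-205 and Cyp26b1-204, held 53.2% and 41.0% of its transcript counts over all libraries.

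Cyp26c1 (ENSMUSG00000062432, chr19:37685581-37693398, plus strand), which lies beside Cyp26a1 on chromosome 19, stayed at or below 4.97 CPM in every library. Per length its group means were above those of Cyp26b1 at D18 in RWB (2.18 TPM against 0.661 TPM for Cyp26b1) and in SSCd (2.93 TPM against 1.89 TPM). At D22 in RWB it was also slightly above, at 0.838 TPM against 0.814 TPM. Its group means were below those of Cyp26a1 in all 9 groups. It had 2.79 and 2.16 CPM in RWB, 1.32, 4.97 and 3.70 CPM in SSCd and 0.375 and 1.92 CPM in SSCi at D18, and 0 to 0.685 CPM on the last day of any culture. The last day over D18 gave -2.73 ± 1.00 in RWB (adjusted p = 0.0462), -4.91 ± 1.10 in SSCd (adjusted p = 0.0016) and -2.95 ± 1.13 in SSCi (adjusted p = 0.0476, groups overlapping). The SSCd call held under every alternative that gave a fold, at -4.33 without D28 replicate 1. SSCd D28 held 5 counts in all, and leaving out D28 replicate 2 or 3 left too few counts for a fold. The RWB call was lost when any of its 5 libraries but D25 replicate 2 was left out (adjusted p of 0.0937 to 0.153), and was -3.53 without that one (adjusted p = 0.0392). The SSCi call was lost without D32 replicate 1 or 2. Its log2 fold change was -1.33 without D18 replicate 2 and -3.72 without D18 replicate 1. All 6 counts of SSCi D32 came from replicate 3, and without that library no fold is given.

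The make-up of the breakdown genes was set per length in the same way. Cyp26b1 was 0.846% to 20.9% of summed Cyp26 TPM in the RWB libraries of all days. In SSCd it was 2.97% to 6.29% at D18, 32.4% to 56.1% at D22 and 45.0% to 89.4% at D28. In SSCi it was 20.1% and 65.0% at D18, 63.5% and 65.3% at D25, and 64.3% to 78.8% at D32. The RWB range lay below those of SSCd at D22 and D28 and of SSCi at D25 and D32. The sum of synthesis TPM over breakdown TPM was 1.42 and 2.01 in RWB, 1.56 to 7.22 in SSCd and 15.0 and 38.1 in SSCi at D18. On the last days it was 2.96 to 13.8 in RWB, 5.09 to 6.85 in SSCd and 11.5 to 16.2 in SSCi. These ratios are of RNA levels and say nothing of enzyme activity.

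**Figure D5:**
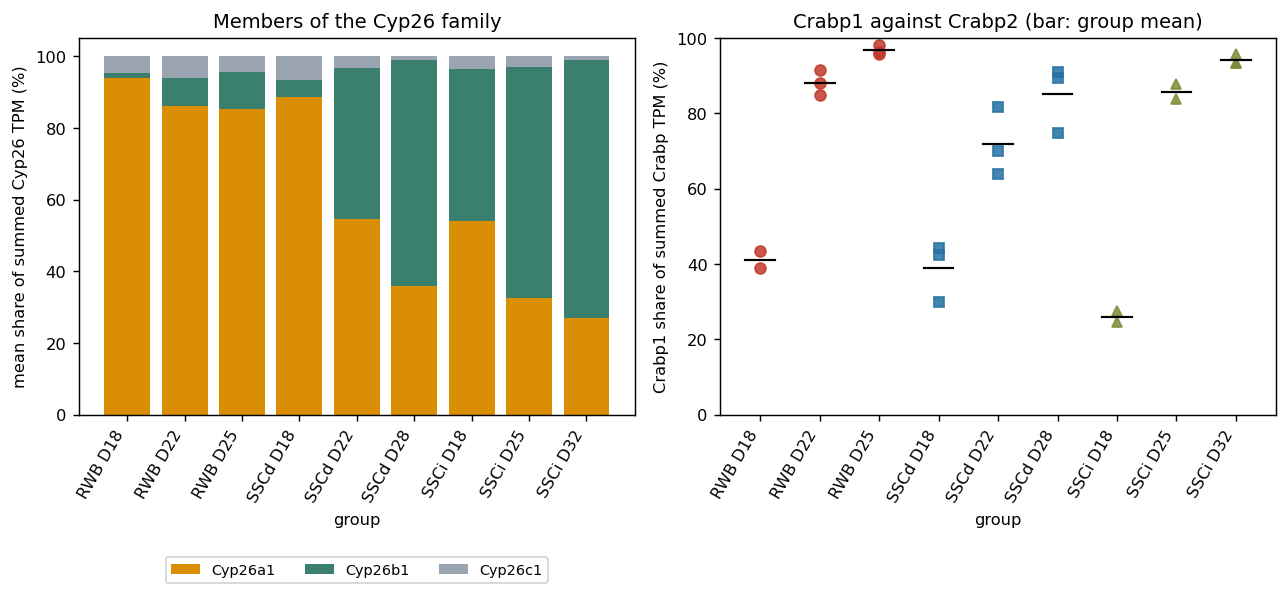
Left, the mean share of Cyp26a1, Cyp26b1 and Cyp26c1 in summed Cyp26 TPM in each group (stacked bars, percent). Right, the share of Crabp1 in the sum of Crabp1 and Crabp2 TPM in each library (points) with the group mean (line). Mean Cyp26b1 shares are 1.45% to 10.2% in RWB and 63.1% and 72.0% on the last day of SSCd and SSCi, and the Crabp1 share is below 45% at D18 and above 74% on the last days.

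The retinoic acid carriers Crabp1 (ENSMUSG00000032291, chr9:54764748-54773110, plus strand) and Crabp2 (ENSMUSG00000004885, chr3:87948666-87953376, plus strand) took different courses. CRABP2 is known for handing retinoic acid to RAR in the nucleus, and CRABP1 for holding it in the cytoplasm. Crabp2 had 170.0 and 109.7 CPM at D18, 23.9, 29.6 and 24.1 CPM at D22, and 4.92, 5.79 and 2.67 CPM at D25 in RWB. It had 272.9, 242.8 and 175.0 CPM at D18, 72.1, 75.2 and 37.4 CPM at D22, and 8.33, 22.9 and 7.58 CPM at D28 in SSCd. It had 198.8 and 307.3 CPM at D18, 22.8 and 25.0 CPM at D25, and 3.61, 4.89 and 4.80 CPM at D32 in SSCi. Within each culture no library of a later day reached any of an earlier one.

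The fall of Crabp2 between D18 and the last day was the largest log2 fold change of the 9 genes in RWB, at -4.98 ± 0.44 (adjusted p = 1.69e-07), and in SSCi, at -5.83 ± 0.46 (adjusted p = 2.01e-08). In SSCd it was -4.15 ± 0.41 (adjusted p = 2.08e-07), and -4.85 without D28 replicate 2, the high one. All 9 of its time calls held under every alternative. The steps were -2.44 and -2.54 in RWB, -1.90 and -2.25 in SSCd and -3.40 and -2.43 in SSCi. At D25 Crabp2 was also lower in RWB (4.46 ± 1.61 CPM, SD, n = 3) than in SSCi (23.9 ± 1.58 CPM, SD, n = 2; log2 fold change -2.43 ± 0.42, adjusted p = 0.00149), a call kept under every alternative. At D22 it was 25.9 ± 3.25 CPM in RWB and 61.5 ± 21.0 CPM in SSCd (SD, n = 3 each), without overlap, at a log2 fold change of -1.25 ± 0.36 that was not called (adjusted p = 0.0892). With the replicate number as a block, which pairs these groups, it was -1.19 and called (adjusted p = 0.0322), as it was by DESeq2 (adjusted p = 0.0258).

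Crabp1 changed less. In RWB it had 96.1 and 76.0 CPM at D18, 230.6, 194.8 and 120.6 CPM at D22, and 114.3, 116.2 and 128.8 CPM at D25. In SSCd it had 105.3, 170.9 and 114.0 CPM at D18, 149.5, 117.4 and 148.7 CPM at D22, and 61.6, 61.2 and 68.4 CPM at D28. In SSCi it had 68.7 and 87.8 CPM at D18, 107.4 and 157.1 CPM at D25, and 74.1, 60.9 and 62.7 CPM at D32. The middle day held the highest group mean in each culture, with overlap between D18 and D22 in SSCd and between D22 and D25 in RWB.

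Crabp1 rose at D22 against D18 in RWB (log2 fold change 1.08 ± 0.26, adjusted p = 0.00892), a call lost without D18 replicate 2 or D22 replicate 1. It fell at D28 against D22 in SSCd (-1.12 ± 0.22, adjusted p = 0.00345) and against D18 (-1.03 ± 0.22, adjusted p = 0.00121), and both calls held under every alternative. It fell at D32 against D25 in SSCi (-1.0 ± 0.24, adjusted p = 0.0126), a call lost without D25 replicate 2 (-0.70, adjusted p = 0.307) or D32 replicate 2 or 3. D25 over D18 was 0.48 ± 0.25 in RWB (adjusted p = 0.163) and 0.76 ± 0.27 in SSCi (adjusted p = 0.0548). The difference between RWB and SSCd in the change from D18 to D22 was 0.99 ± 0.33 (unadjusted p = 0.00764, adjusted p of 1), the smallest unadjusted p of the 9 genes. Per length, Crabp1 made up 24.5% to 44.3% of Crabp TPM in the D18 libraries of the 3 cultures and 74.9% to 98.2% on their last days.

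Rarb (ENSMUSG00000017491, chr14:16430839-16819156, minus strand), the receptor gene with the repeat spaced by 5 bases printed above, had 17.3 and 18.4 CPM at D18, 15.9, 16.3 and 17.9 CPM at D22, and 23.8, 16.0 and 15.1 CPM at D25 in RWB. It had 31.4, 27.3 and 22.8 CPM at D18, 20.3, 20.1 and 31.2 CPM at D22, and 15.3, 16.7 and 20.6 CPM at D28 in SSCd. It had 67.1 and 40.6 CPM at D18, 34.1 and 31.1 CPM at D25, and 17.6, 19.9 and 17.9 CPM at D32 in SSCi. The RWB libraries lay between 15.1 and 23.8 CPM on all days, while both SSCi libraries of D18 exceeded all other libraries.

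Rarb fell in SSCi between D18 and D32 by a log2 fold change of -1.54 ± 0.24 (adjusted p = 5.41e-05), a call that held under every alternative. In SSCd D28 over D18 was -0.63 ± 0.22 (adjusted p = 0.0329), lost without D18 replicate 1 or 2 or D28 replicate 1 or 2, and in RWB D25 over D18 was 0.03 ± 0.25 (adjusted p = 0.944). The step from D25 to D32 in SSCi was -0.82 ± 0.25 (adjusted p = 0.0436), lost when any of its 5 libraries was left out. Against SSCi at D18, Rarb was at -1.59 ± 0.28 in RWB (adjusted p = 0.00451), lost without any one of the 4 libraries but SSCi replicate 2, and at -0.99 ± 0.24 in SSCd (adjusted p = 0.0247). The SSCd call was lost without SSCi replicate 1 (-0.58) or SSCd replicate 2 or 3. At D25 RWB over SSCi was -0.84 ± 0.25 (adjusted p = 0.0393), and leaving out any library but RWB replicate 1 ended the call. Across the 24 libraries the log2 CPM of Rarb and of Cyp26a1, the gene that shares the repeat, correlated weakly (Pearson's r = 0.16), and those of Rarb and Aldh1a1 more closely (r = 0.80). The libraries share days and cultures, so these are descriptions.

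Dhrs3 (ENSMUSG00000066026, chr4:144892827-144928209, plus strand), the retinal reductase, rose in static culture. In RWB it had 6.97 and 4.79 CPM at D18, 6.09, 5.48 and 9.78 CPM at D22, and 7.06, 10.1 and 8.65 CPM at D25. In SSCd it had 16.3, 7.40 and 4.88 CPM at D18, 31.2, 21.4 and 31.6 CPM at D22, and 71.5, 73.1 and 72.3 CPM at D28. In SSCi it had 36.7 and 11.1 CPM at D18, 17.6 and 22.0 CPM at D25, and 66.5, 57.8 and 67.0 CPM at D32. The last days of SSCd and SSCi were the highest groups and did not overlap each other or any other group.

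Dhrs3 rose in SSCd by a log2 fold change of 2.93 ± 0.41 at D28 over D18 (adjusted p = 1.28e-05), which held under every alternative and was 3.55 without D18 replicate 1. The steps were 1.56 ± 0.39 at D22 over D18 (adjusted p = 0.011) and 1.36 ± 0.38 at D28 over D22 (adjusted p = 0.0305). The first was lost without D18 replicate 2 or 3 and was 2.18 without D18 replicate 1, and the second was lost when any library was left out. In SSCi, D32 over D18 was 1.41 ± 0.44 (adjusted p = 0.0156), and it moved with the D18 replicates, to 2.51 without replicate 1 and 0.84 without replicate 2 (adjusted p = 0.187). D32 over D25 was 1.69 ± 0.45 (adjusted p = 0.0225) and was lost without any library but D32 replicate 2. The medium additions of SSCi began between D25 and D32, and their part in this rise was not tested. In RWB, D25 over D18 was 0.55 ± 0.45 (adjusted p = 0.382).

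Between cultures, Dhrs3 was lower in RWB (7.12 ± 2.33 CPM) than in SSCd (28.1 ± 5.78 CPM) at D22 (SD, n = 3 each; log2 fold change -1.98 ± 0.40, adjusted p = 0.00965). The call was lost without RWB replicate 1 or 2 (adjusted p of 0.0643 and 0.0825) and without the 4 libraries of high mitochondrial share (-1.77, adjusted p = 0.0824). The difference in change from D18 to D22 between RWB and SSCd was -1.29 ± 0.58 (unadjusted p = 0.0396, adjusted p of 1). Against SSCi it was called lower in RWB at D18 (-2.02 ± 0.49, adjusted p = 0.0206), but not without either RWB library or SSCi replicate 1 (-0.91, adjusted p = 0.633), and not at D25 (-1.20 ± 0.42, adjusted p = 0.0821), where the libraries did not overlap. The SSCd D28 libraries had 72.3 ± 0.83 CPM (SD, n = 3), while RWB ended at D25 with 8.62 ± 1.55 CPM (n = 3). These days differ, RWB has no library after D25, and the 2 groups were not compared. In SSCi, D25 over D18 was -0.27 ± 0.46 and not called (edgeR adjusted p = 0.733).

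Other genes of the pathway were read in the same 5 culture comparisons. Of 8 genes of retinoid uptake, storage and transport, 6 were tested and none was called in the 5 culture comparisons. Of 12 genes that interconvert retinol and retinal, 9 were tested and Dhrs9 was called once, lower in SSCd than in SSCi at D18. Of the other 5 receptors, all tested, Rarg was called lower at D18 than in SSCi in SSCd (log2 fold change -2.82) and RWB (-3.81), where SSCi held 36 CPM in replicate 1 and 2.71 CPM in replicate 2. Rara, Rxra, Rxrb and Rxrg were called in none of them, and none of 6 receptor coregulators was. Of 12 genes known to respond to retinoic acid, 8 were tested. Rarres2 was called lower in SSCd than in SSCi at D18, and Cyp1b1 and Nr2f2 lower in RWB than in SSCi at D18. At D25 Tgm2, Nr2f2 and Meis1 were called lower in RWB than in SSCi. The D18 calls of these lists against SSCi rest on few libraries. Fitting only the groups compared called 0 of 15367 genes for SSCd over SSCi and 0 of 15030 for RWB over SSCi. SSCi replicate 1, high in mesenchyme markers, enters each of these D18 calls, and its part in them was not tested. Between RWB and SSCd none of these 5 lists had a called gene on either day.

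With time, genes of these lists were called as follows. On the last day against D18, Stra6, the membrane receptor for retinol uptake, fell in RWB (log2 fold change -1.71 ± 0.54, adjusted p = 0.0211) and SSCi (-2.41 ± 0.54, adjusted p = 0.00159). The retinol dehydrogenase gene Rdh10, whose product makes retinal, rose in SSCd (0.78 ± 0.23, adjusted p = 0.0114), and Dhrs4 fell in all 3 cultures, by log2 fold changes of -1.14 in RWB, -0.79 in SSCd and -1.01 in SSCi. Of the 8 responsive genes tested, 1 was called higher and 2 lower in RWB, where 2508 of all 16792 genes were higher and 2347 lower. In SSCd 3 were called higher and 5 lower, against 17.5% and 17.1% of all genes, and in SSCi 1 higher and 4 lower, against 16.2% and 20.5%. Meis2 was higher and Nr2f1 lower in all 3, while Tgm2 was lower in RWB and SSCd. Rxra and Rara were called in no time comparison. Rxrg, a receptor of developing cones, was higher at D25 than at D18 in SSCi (1.52 ± 0.41, adjusted p = 0.0124) and lower at D32 than at D25 (-1.42 ± 0.36, adjusted p = 0.0178). Rarg was higher in RWB at D25 than at D18 (2.27 ± 0.76, adjusted p = 0.0309).

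Cell type markers moved over the same days. On the last day against D18, the retinal progenitor markers called lower were 6 of 7 in RWB, 7 of 7 in SSCd and 5 of 7 in SSCi, and all 6 rod markers were called higher in each culture. The part of these shifts in the falls of Crabp2, Cyp26a1 and Aldh1a3 was not tested.

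The genes whose log2 CPM ran closest to each of the 9 were ranked by Pearson's r over the 24 libraries, leaving out genes whose mean log2 CPM was under 3. For Crabp2 they were Nme4 (r = 0.97), Arhgef39 (0.97) and Ptpru (0.96). For Cyp26a1 they were Mcm7, a subunit of the replicative helicase (0.93), Larp7 (0.93) and Cep78 (0.93), and for Cyp26c1 they were Arvcf (0.92), Arrb2 (0.92) and Tk1, a thymidine kinase of dividing cells (0.91). Cyp26b1 ran closest to Arsa (0.93), H2-K1 (0.90) and Prrc1 (0.90). Dhrs3 ran closest to Sdc4 (0.91), Cpox (0.90) and Anxa2 (0.90). Crabp1 ran closest to Gadd45gip1 (0.87), Wbp1 (0.86) and Bend5 (0.85). Aldh1a3 ran closest to Cntn2 (0.87), Gm5641 (0.87) and Hspd1 (0.87), and Aldh1a1 to Ifitm2 (0.88), Spg20 (0.84) and Nr2f2 (0.83). Nr2f2, a nuclear receptor on the list of responsive genes, was also the closest to Rarb (0.87), before Rbms3 (0.83) and Diaph2 (0.82). Among the members, Cyp26a1 ran with Cyp26c1 (0.86) and Crabp2 (0.81), and Cyp26b1 with Dhrs3 (0.75), while Dhrs3 ran against Cyp26a1 (-0.69).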

How the data were processed

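The samples were 24 libraries of mouse organoids in 9 groups, taken from the sample titles. The authors deposited estimated counts per gene and per transcript; kallisto 0.42.5, edgeR 3.13.9, limma 3.32.2 and GRCm38.p5 are named in the submitters' processing notes, and their annotation release is not given in the sources used here. Deposited gene counts are not plain sums of the transcript counts (72.0% of values lay within 10% of them), so sums were tried as well. Symbols, coordinates and transcript lengths came from GENCODE M21 (GRCm38).

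Estimated counts were rounded, filtered with filterByExpr and scaled with TMM, which also gave the CPM values. TPM was computed from the transcript counts and annotated lengths. One edgeR 4.0.16 quasi-likelihood fit (R 4.3.3) with 9 group means gave every log2 fold change, with Benjamini-Hochberg adjustment over 16792 genes and a threshold of 0.05. The median biological coefficient of variation was 0.256. A group with 3 or fewer counts of a gene gives no fold for it. The scripts were tested on simulated data. Alternatives were DESeq2 1.42.0 (Wald test, and its size factors), limma-voom (limma 3.58.1), no filter, only the groups compared, a replicate block, each library left out, and 4 libraries of high mitochondrial share left out. Transcript sums and a crossed block were added after seeing the data.

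Replicate numbers in the titles were checked as pairs. In 4 comparisons with 3 pairs every correlation of deviations from the group means was over 0.1: RWB over SSCd at D22 (0.43, 0.20 and 0.43), RWB D25 over D22 (0.49, 0.20 and 0.37), SSCd D22 over D18 (0.41, 0.12 and 0.33) and SSCd D28 over D22 (0.30, 0.20 and 0.40). The pairing is thus read from the data, as no label states a shared batch. Replicates differed by 10.3 to 273 times counting variance, so none was counted as a repeat deposit. P-values measure the spread between these libraries, which the series text calls biological replicates.

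All 10 genes were followed in every comparison; each call is named, and uncalled changes are given in part. Of the other retinoid lists, called genes are named, up to 4 per list with the smallest p, and Rxra, Rxrg, Rara, Rarg, Stra6 and Rdh10 in any case (1 further gene of this rule is not reported here); for likeness, the 3 genes of highest r. The genes, lists and markers were chosen with earlier results of these data known.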

Additional observations from a re-analysis of the deposited data

How the results depend on the processing

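Of 135 log2 fold changes of the 9 genes, 51 were called, 21 of them under every alternative run on them, and no result changed sign where either of its values was called. Among calls, 30 were lost with some library left out and 20 in some other setting, while 13 uncalled results were called in some setting. Calls lost and gained were 0 and 8 with the DESeq2 Wald test, 1 and 0 with DESeq2 size factors, 6 and 2 with limma-voom, 4 and 0 with no filter, 12 and 4 with only the groups compared, 1 and 0 with transcript sums, and 11 and 2 without the 4 libraries of high mitochondrial share. The cause was not tested. The number of the 9 genes called for SSCd over SSCi at D18 was 1 with limma-voom, 0 with only the groups compared and 0 without the high mitochondrial libraries. Over all genes tested these settings called 28 of 16792, 0 of 15367 and 28 of 16699, in turn. For RWB over SSCi the number of the 9 called was 0 at D18 with only the groups compared (0 of 15030 of all genes). At D25 it was 5 with the replicate block (3348 of 16792 of all genes) and 5 with DESeq2 (2413 of 16255). The main fit called 1458 of 16792 genes there. Without the high mitochondrial libraries the number of the 9 called was 1 for RWB over SSCd at D22 (101 of 16699 of all genes). It was 2 for SSCd D22 over D18 (1450 of 16699) and 5 for SSCi D25 over D18 (4338 of 16699). DESeq2 also gave 5 for SSCi D25 over D18 (4027 of 17751). Each library of a group of 3 was also left out in turn, and the number of all genes called follows in brackets. For RWB over SSCd at D22 the number of the 9 called ranged from 1 to 3 (98 to 310). For SSCd over SSCi at D18 it ranged from 0 to 4 (0 to 380). For RWB it was 1 to 3 (1106 to 1624) for D22 over D18 and 1 to 2 (444 to 751) for D25 over D22. For SSCd D22 over D18 it was 1 to 5 (1142 to 1742). For SSCi it was 1 to 2 (879 to 910) for D32 over D25 and 6 to 7 (5195 to 5244) for D32 over D18. Where 1 library was left in a group, it was assumed to vary like the other groups, and such fits are left out of these ranges. In the paired comparisons the replicate block changed no call but that of Crabp2 at D22. Elsewhere the libraries share only a number. There the block gained Aldh1a1 (-1.63, adjusted p = 0.0436) and Dhrs3 (-1.21, adjusted p = 0.0449) for RWB over SSCi at D25, Cyp26a1 (-1.69, adjusted p = 0.0237) for RWB D22 over D18 and Cyp26b1 (-1.08, adjusted p = 0.0318) for SSCi D32 over D18. It lost Aldh1a1 for SSCd D28 over D18 (-1.29, adjusted p = 0.0511), a comparison in which 3 of 6 libraries correlated best with their own number. Numbers at D18 deviated apart between RWB and SSCi, at a correlation of -0.19. With 2 libraries per group this value is necessarily the same for both numbers. Swapping the numbers in the block left 4 calls, as without the swap. Groups of 2 or 3 libraries, and the low counts of Aldh1a2 and Cyp26c1, limit what could be detected.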
